A study of Mus musculus with 15 samples.

Results

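Mammary tumors labelled carcinosarcoma (3 libraries, mice 64, 567 and 897) were compared with tumors labelled carcinoma (3 libraries, mice 89, 273_5 and 3956), which make 6 of the 15 libraries of the series. They were taken by their genotype label (TRIM24 overexpression) and subtype label, all from sequencing batch 1 and each from the first library of its mouse. All 6 mice carried the same alleles. In Trim24COE mice, a single inserted transgene holds a stop cassette flanked by lox sites and a Flag-tagged mouse Trim24, and MMTV-Cre, which is active in mammary epithelium, removes the stop. The strain label was FVB, while the design text names FVB/129, the mice were virgin females, and no age was given in the labels. The study's pathology table lists an age for each tumor mouse. Age differed between mice within both classes, and its part in the results was not tested. The controls, used here only as a reference for levels, were 4 mammary glands of mice with MMTV-Cre and no Trim24 transgene. The class of each tumor is a call on sections. For tumors 89 and 3956, labelled carcinoma, the pathologists of the study disagreed on carcinoma or carcinosarcoma, tumor 567 was also read as spindle cell carcinoma, and its pathology table also lists calls made from RNA-seq, so the classes may not be independent of expression.

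A carcinosarcoma, or metaplastic carcinoma, of the breast holds an epithelial component and a spindle or otherwise mesenchymal component, whereas a carcinoma is epithelial. Epithelial cells are held together by E-cadherin junctions, tight junctions and desmosomes, and a small set of transcription and splicing factors keeps these genes active. In an epithelial to mesenchymal transition (EMT) this program is shut off and mesenchymal genes such as Vim are expressed. The 2 classes were compared to find out which genes separate them.

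Levels are given as TPM, transcript levels scaled for transcript length and library size, in the order of mice 64, 567 and 897 for carcinosarcomas and 89, 273_5 and 3956 for carcinomas. Fold changes are differences of mean log2(TPM + 1), carcinosarcoma minus carcinoma, tested with limma, and a gene was called when its Benjamini-Hochberg adjusted p was under 0.05. TPM keep no depth, so counting error is unknown, and p-values measure the spread between single tumors of different mice. Because these are bulk tumors, fewer epithelial cells and less RNA of a gene in each epithelial cell cannot be told apart. Between 22774 and 31987 genes were above 0 in the 6 tumors. Mitochondrial transcripts took 2.7 to 7.49% of TPM in the carcinosarcomas and 6.06 to 9.58% in the carcinomas, and their part in the results was not tested. Trim24, the transgene's gene, stood at 10.6, 12.02 and 14.5 TPM in the carcinosarcomas and 24.1, 13.9 and 16.4 TPM in the carcinomas, beside 14.5 to 22.4 TPM in the glands. The classes overlapped, with a log2 fold change of -0.49, 95% CI from -1.19 to 0.20, adjusted p = 0.469. A two-sided exact permutation test gave p = 0.2, where 3 against 3 allow no less than 0.1. Of the 6 tumors, only carcinoma 89 was above the highest gland for Trim24. The transgene is a mouse Trim24 cDNA, so reads of its coding part match the Trim24 gene. Whether the deposited TPM count them is not given in the sources used here, so these TPM alone do not settle its expression. The study reported high Trim24 in these tumors against glands with Cre only, by RNA-seq and qRT-PCR. These TPM do not show that, and the cause of the difference was not tested.

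Genes of the epithelial program were lower in the carcinosarcomas. Of 14193 genes tested, 99 were called (0.698%), of which 83 were lower (0.585%) and 16 were higher (0.113%). The 83 lower genes had log2 fold changes from -6.20 to -1.73 with a median of -3.42, and the 16 higher genes from 1.63 to 4.85 with a median of 2.61. The 5 lists of epithelial genes (transcription and splicing factors, cadherin and tight junction genes, polarity and trafficking genes, desmosome genes and the membrane serine proteases) held 63 genes tested, of which 25 were called lower and 0 higher, and 61 had a fold change below 0. With the keratins and the epithelial receptors and kinases added, 27 of 89 genes were called lower and 0 higher, and 85 were below 0. The lists were chosen with earlier results of these data known, so such counts describe them and are no independent support. The shares of all genes, 0.585% called lower and 0.113% higher, stand beside every list count below. In 26 of the 83 every carcinosarcoma was under 1 TPM, so these passed the filter on low values (1 TPM in 3 tumors) only through the carcinomas. In 7 of the 16 higher genes (Foxf2, Nog, Pgk1-rs7 and Rnu3b1 to Rnu3b4) every carcinoma was under 1 TPM, so these passed only through the carcinosarcomas. At an unadjusted p under 0.05, 2126 genes of the whole table differed. The median over all genes tested was -0.10. In 45 of the 63 every carcinosarcoma lay below every carcinoma, which held for 14.4% of all genes tested, and 7.33% of all genes had every carcinosarcoma above every carcinoma.

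**Figure D1:**
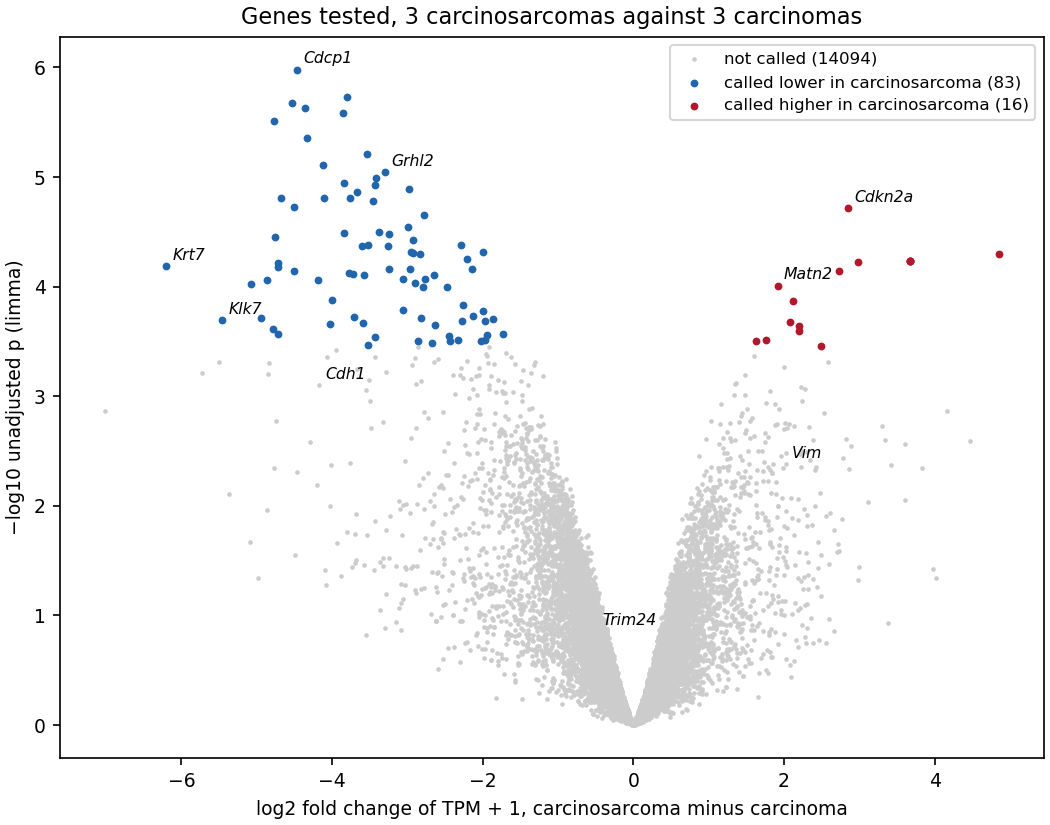
Log2 fold change of TPM + 1 (x axis) against -log10 of the unadjusted limma p (y axis) for 14193 genes, each point a gene. The 83 genes called lower reach -6.20 (Krt7) and outnumber the 16 called higher, which include Cdkn2a at 2.86. Cdh1, Vim and Trim24 were not called.

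Transcription and splicing factors of epithelium were among the lower genes. Of the 13 tested, 5 were called lower and 0 higher, and the list median was -3.04. Grhl2, a grainyhead factor that activates junction genes (chromosome 15, 37233036 to 37363569, GRCm38), stood at 0.87, 0.85 and 1.34 TPM in the carcinosarcomas and 20.96, 21.7 and 14.6 TPM in the carcinomas, with 7.42 to 40.8 TPM in the glands. All carcinosarcomas were near 1 TPM and every carcinoma lay in the range of the glands, a log2 fold change of -3.30, 95% CI from -3.99 to -2.61, adjusted p = 0.0123. That range was wide, with 7.42 and 8.22 TPM in glands 133 and 392 and 40.8 and 30.5 TPM in the others. Esrp1 and Esrp2 direct epithelial splicing. Esrp1 had 0.43, 1.55 and 0.19 TPM in the carcinosarcomas and 49.9, 21.5 and 43.3 TPM in the carcinomas (a log2 fold change of -4.50, 95% CI from -5.55 to -3.46, adjusted p = 0.013). Esrp2 was at 0.39, 0.96 and 0.79 TPM in the carcinosarcomas and 38.7, 20.6 and 8.89 TPM in the carcinomas, with a log2 fold change of -3.59 (adjusted p = 0.0385). Ovol2, a repressor of mesenchymal genes, was weak in both classes, at 0.08, 0.15 and 0.11 TPM against 4.36, 2.85 and 3.19 TPM, and was called at a log2 fold change of -1.99. In each of these 4 genes the carcinosarcomas stayed below 2 TPM and no values overlapped.

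Other factors of this list were carried by part of the carcinomas only. Elf5, which drives the alveolar luminal lineage, had 0.8, 4.89 and 1.09 TPM in the carcinosarcomas and 88.1, 79.3 and 2.34 TPM in the carcinomas, Ehf, an ETS factor of epithelium, had 0.32, 2.61 and 0.57 TPM in the carcinosarcomas and 76.1, 22.2 and 0.67 TPM in the carcinomas, and Tfap2c, an AP-2 factor, had 0.16, 2.3 and 0.45 TPM in the carcinosarcomas and 36.9, 52.1 and 0.52 TPM in the carcinomas. Trp63, the basal lineage factor, had 0.74, 0.83 and 1.19 TPM in the carcinosarcomas and 31.9, 10.3 and 0.06 TPM in the carcinomas. Carcinoma 3956 was within or below the range of the carcinosarcomas in these 4 genes, while its Grhl2, at 14.6 TPM, and Esrp1, at 43.3 TPM, stayed far above them. None of the 4 was called, with adjusted p-values of 0.292, 0.357, 0.337 and 0.463. The mean log2(TPM + 1) over the 13 factors was 1.00, 1.64 and 1.09 in the carcinosarcomas and 5.13, 4.32 and 2.71 in the carcinomas, and over the 17 junction genes it was 1.90, 2.74 and 1.37 against 5.65, 4.88 and 5.20. Carcinoma 3956 was the lowest carcinoma for the factors but not for the junction genes. Without it, 10 of the 13 factors were called lower, among 188 lower genes in all, whereas limma called 0 without tumor 64, 897 or 89, 2 without 567 and 3 without 273_5.

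Of 17 cadherin and tight junction genes, 6 were called lower and 11 did not pass the test. In 15 of the 17 every carcinosarcoma was below every carcinoma, where the share of all genes was 14.4%, and the median was -3.46. Cldn7, a claudin of mammary epithelium, had 2.16, 9.97 and 0.73 TPM in the carcinosarcomas and 118, 119 and 161 TPM in the carcinomas, and Cldn3 had 11.6, 11.3 and 1.02 TPM in the carcinosarcomas and 174, 145 and 219.7 TPM in the carcinomas. Every carcinoma was far above every carcinosarcoma, 897 was the lowest, and the genes had log2 fold changes of -5.08 (adjusted p = 0.0218) and -4.71 (adjusted p = 0.0449). Lsr and Marveld2 (tricellulin) seal the points where 3 cells meet. Lsr had 2.57, 10.4 and 1.97 TPM in the carcinosarcomas and 119, 78.3 and 149 TPM in the carcinomas (a log2 fold change of -4.51, 95% CI from -5.80 to -3.22, adjusted p = 0.0201). Marveld2 had 0.42, 1.29 and 0.45 TPM in the carcinosarcomas and 10.8, 9.0 and 13.5 TPM in the carcinomas (a log2 fold change of -2.84, 95% CI from -3.60 to -2.07, adjusted p = 0.0194). Cxadr, an adhesion protein at tight junctions that also serves as a virus receptor, and Marveld3 had log2 fold changes of -3.46 and -3.53. Cdh1, which encodes E-cadherin, had 3.19, 18.9 and 1.29 TPM in the carcinosarcomas and 124, 84.8 and 103 TPM in the carcinomas, beside 36.9 to 196 TPM in the glands. The classes did not overlap for Cdh1, but carcinosarcoma 567 kept 18.9 TPM and the gene was not called (a log2 fold change of -4.17, 95% CI from -5.92 to -2.42, adjusted p = 0.0744). Epcam, at 10.3, 36.4 and 2.73 TPM against 1275, 281 and 401 TPM, also missed the threshold (adjusted p = 0.0598).

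**Figure D2:**
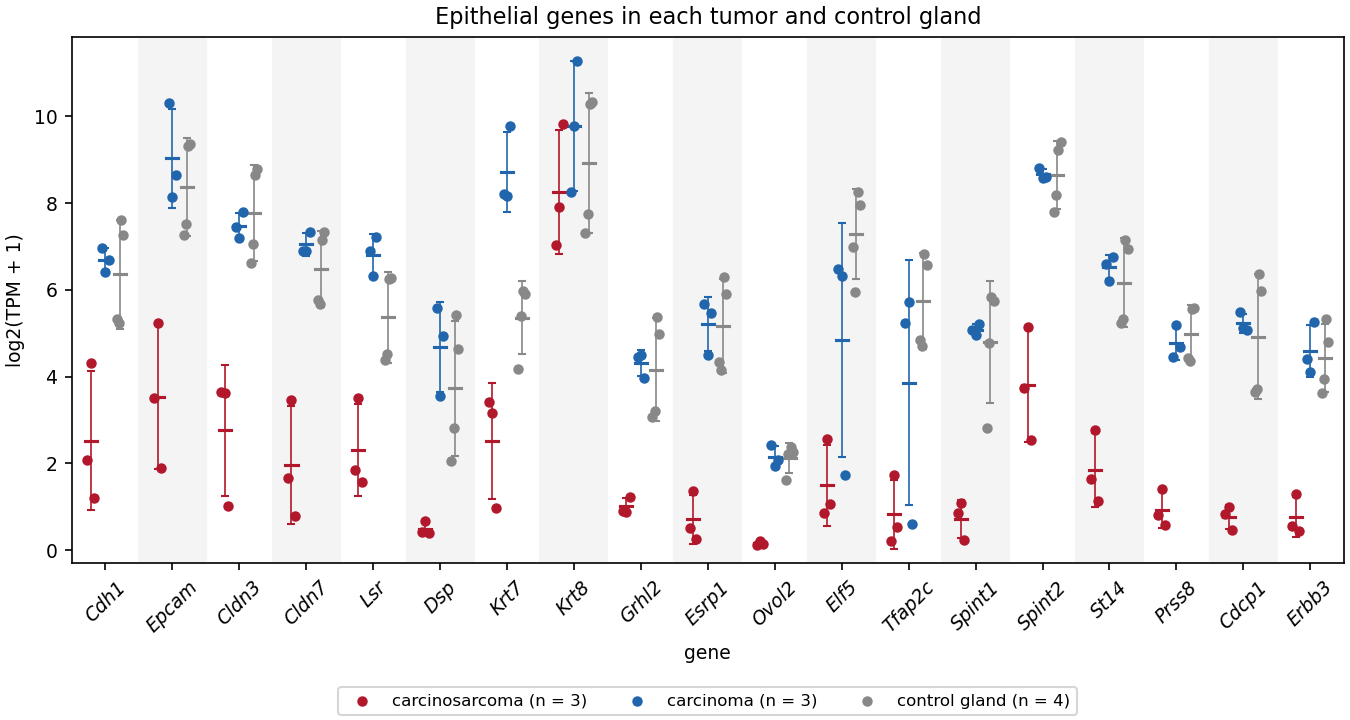
Log2(TPM + 1) (y axis) of 19 epithelial genes (x axis) in each carcinosarcoma (n = 3), carcinoma (n = 3) and control gland (n = 4), with the mean as a short bar and the SD as error bars. The carcinosarcomas lie below the other tumors in most genes, but Krt8 overlaps, and Elf5 and Tfap2c have a low carcinoma, mouse 3956, at 2.34 and 0.52 TPM.

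The starts of these genes are shown because members that were low together can be compared base by base. The E-box CAGGTG, searched on both strands (CACCTG on the other), is the element that Snail and Zeb repressors bind. Of the genes called lower in the junction, protease and factor lists, the 4 with the smallest p that had an entry in RefSeq's promoter table (GRCm38.p6) were Cdcp1, Spint1, Marveld2 and Lsr. For each, the 250 bases before an annotated start are given 5′ to 3′ on the gene's strand, in lower case with E-boxes in capitals. Marveld2 had another annotated start, whose window (chr13:100616945-100617194) also held 0 E-boxes and is not printed.
Cdcp1, chr9:123216039-123216288, minus strand: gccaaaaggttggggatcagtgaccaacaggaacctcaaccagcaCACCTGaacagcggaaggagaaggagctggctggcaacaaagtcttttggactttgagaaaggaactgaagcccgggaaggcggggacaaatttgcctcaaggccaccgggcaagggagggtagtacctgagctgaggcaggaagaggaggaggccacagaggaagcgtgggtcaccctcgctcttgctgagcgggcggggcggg
Spint1, chr2:119237110-119237359, plus strand: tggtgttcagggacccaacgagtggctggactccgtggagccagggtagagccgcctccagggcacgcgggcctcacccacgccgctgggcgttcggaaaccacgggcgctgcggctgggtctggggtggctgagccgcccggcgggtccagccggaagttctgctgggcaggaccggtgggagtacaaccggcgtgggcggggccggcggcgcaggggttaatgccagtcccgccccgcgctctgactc
Marveld2, chr13:100616972-100617221, minus strand: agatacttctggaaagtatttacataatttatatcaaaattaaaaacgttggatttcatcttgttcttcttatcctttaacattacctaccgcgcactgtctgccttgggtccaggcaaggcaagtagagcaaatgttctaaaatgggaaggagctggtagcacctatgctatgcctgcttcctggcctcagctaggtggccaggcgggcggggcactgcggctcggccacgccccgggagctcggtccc
Lsr, chr7:30973470-30973719, minus strand: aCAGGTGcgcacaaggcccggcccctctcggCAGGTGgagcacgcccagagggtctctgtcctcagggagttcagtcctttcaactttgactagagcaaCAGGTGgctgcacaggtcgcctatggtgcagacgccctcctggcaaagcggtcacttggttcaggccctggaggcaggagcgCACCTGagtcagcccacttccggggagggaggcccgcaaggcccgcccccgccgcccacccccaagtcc
Lsr held 4 E-boxes in this window, Cdcp1 held 1, and Spint1 and Marveld2 held 0. The motif is in 19.4% of the 27025 genes of the table and in 18.1% of the 10311 genes tested that have an entry. It is in 30 of the 52 lower genes with an entry (57.7%). Entries cover only 52 of the 83 lower genes, so this share does not describe the lower genes as a whole. No comparison is made, and nothing is read from it. A match is a string of letters in the window and not evidence of binding.

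The membrane serine proteases and their inhibitors had the lowest median of all lists, -3.84. Of 9 tested, 5 were called lower and 6 were lower without overlap, where the shares of all genes were 0.585% and 14.4%. St14 (matriptase) and Prss8 (prostasin) activate one another at the epithelial surface, and Spint1 and Spint2 inhibit them. St14 had 2.1, 5.86 and 1.18 TPM in the carcinosarcomas and 95.8, 73.1 and 106 TPM in the carcinomas, with 36.7 to 141 TPM in the glands (a log2 fold change of -4.67, 95% CI from -5.73 to -3.62, adjusted p = 0.0123). Prss8 had 0.74, 1.67 and 0.5 TPM in the carcinosarcomas and 20.8, 35.6 and 24.5 TPM in the carcinomas (a log2 fold change of -3.84, 95% CI from -4.66 to -3.01, adjusted p = 0.0123). The inhibitors were low in the same tumors. Spint1 (chromosome 2, 119237362 to 119249527) had 0.8, 1.12 and 0.17 TPM in the carcinosarcomas and 32.5, 30.2 and 36.2 TPM in the carcinomas (a log2 fold change of -4.36, 95% CI from -5.11 to -3.62, adjusted p = 0.00734), and Spint2, the most abundant of the list, had 12.2, 34.4 and 4.8 TPM in the carcinosarcomas and 447, 383 and 387 TPM in the carcinomas. Cdcp1, a transmembrane protein that matriptase can cleave (chromosome 9, 123170824 to 123216038), had the smallest p of all genes, at 0.78, 1.0 and 0.37 TPM in the carcinosarcomas and 43.7, 33.9 and 32.97 TPM in the carcinomas (a log2 fold change of -4.47, 95% CI from -5.15 to -3.79, adjusted p = 0.00734). For these 5 genes no carcinosarcoma came within the range of the carcinomas, and every carcinosarcoma was also below every gland. Prss22 and F2rl1, also of this list, overlapped between the classes, with adjusted p-values of 0.303 and 0.929.

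Polarity and trafficking genes followed, with 6 of 15 called lower and a median of -2.96. Rab25, a GTPase of recycling endosomes in epithelia, had 1.04, 4.45 and 0.45 TPM in the carcinosarcomas and 97.3, 40.05 and 71.8 TPM in the carcinomas. Ap1m2, the subunit of the AP-1B adaptor that sorts proteins to the basolateral side, had 0.65, 2.77 and 0.22 TPM in the carcinosarcomas and 54.97, 78.8 and 32.6 TPM in the carcinomas. Patj, a scaffold of the Crumbs polarity complex, had 0.99, 1.32 and 1.63 TPM in the carcinosarcomas and 17.04, 14.7 and 20.3 TPM in the carcinomas (a log2 fold change of -2.98, 95% CI from -3.64 to -2.33, adjusted p = 0.0123). All 3 were at 4.45 TPM or less in every carcinosarcoma and at 14.7 TPM or more in every carcinoma. Krtcap3, Bspry and Prom2 were called as well, at log2 fold changes of -3.86, -3.58 and -2.27. Prkci, the atypical protein kinase C of the Par complex, stood at 16.9, 22.4 and 15.3 TPM in the carcinosarcomas and 19.01, 14.5 and 18.7 TPM in the carcinomas and overlapped.

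Desmosome genes had 3 of 9 called lower and a median of -2.65. Desmoplakin, Dsp, which ties desmosomes to keratin filaments, was at 0.33, 0.6 and 0.32 TPM in the carcinosarcomas and 47.1, 10.7 and 29.5 TPM in the carcinomas. Dsg2, a desmosomal cadherin, was at 0.73, 0.5 and 0.18 TPM in the carcinosarcomas and 18.9, 15.2 and 13.6 TPM in the carcinomas, and Pkp3, a plakophilin, at 4.98, 6.91 and 3.92 TPM in the carcinosarcomas and 86.5, 38.7 and 57.95 TPM in the carcinomas. Their carcinosarcoma values were 0.60 TPM or less for Dsp, and 3.92 TPM or more for Pkp3. Log2 fold changes were -4.19, -3.53 and -3.26 (adjusted p = 0.0207, 0.0109 and 0.019). Of the 11 keratins tested only Krt7, a simple-epithelium keratin, was called. Krt7 had 9.59, 7.99 and 0.95 TPM in the carcinosarcomas and 294, 285 and 874 TPM in the carcinomas and 17.01 to 61.6 TPM in the glands, a log2 fold change of -6.20, 95% CI from -7.94 to -4.46, adjusted p = 0.0201, and its carcinomas were above every gland. The luminal keratins stayed detectable, with Krt8 at 130.2, 239 and 914 TPM in the carcinosarcomas and 306, 882 and 2469 TPM in the carcinomas and Krt18 at 109.8, 144 and 463 TPM against 539, 887 and 2778 TPM. Krt8 overlapped between the classes, since carcinosarcoma 897 was above 2 of the carcinomas. The basal keratin Krt14 was high in carcinoma 89 alone among the tumors, at 1153, 58.8 and 34.2 TPM in the carcinomas.

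Of 15 epithelial receptor and kinase genes, Erbb3, the partner of ERBB2 that binds neuregulins, was the only one called, at 0.46, 1.43 and 0.35 TPM in the carcinosarcomas and 20.3, 16.2 and 37.2 TPM in the carcinomas (a log2 fold change of -3.84, 95% CI from -4.81 to -2.87, adjusted p = 0.0179). Erbb2 itself was at 5.38, 9.42 and 6.53 TPM in the carcinosarcomas and 22.8, 10.3 and 20.4 TPM in the carcinomas, lower in every carcinosarcoma but not called (adjusted p = 0.239). Met, the receptor of hepatocyte growth factor, went against this list. It had 227, 777 and 792 TPM in the carcinosarcomas and 28.5, 1292 and 30.9 TPM in the carcinomas, with 20.9 to 42.4 TPM in the glands. Carcinoma 273_5 held the highest Met of all 6 tumors while the other carcinomas were within the range of the glands, and no difference between classes was called (a log2 fold change of 2.28, 95% CI from -1.13 to 5.70, adjusted p = 0.491). Egfr and Fgfr2 had log2 fold changes of -0.17 and 0.01, and Fgfr2 was below every gland in all 6 tumors.

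In 65 of the 83 lower genes the carcinosarcomas were below every gland while the carcinomas overlapped the glands. In a further 16 the carcinomas were above every gland. The shares of all genes tested with these positions against the glands were not counted. The 83 were selected as low in carcinosarcomas, so both counts only describe them. The glands were not alike, so overlap with their range does not show a common gland level. The 7 adipocyte markers summed to 25136 and 37568 TPM in glands 133 and 392 and to 1725 and 1918 TPM in the others. Cdcp1 split the same glands, at 11.5 and 12.1 TPM against 81.8 and 61.7 TPM. Smim22 did not, at 77.1 and 88.1 TPM against 81.3 and 111.8 TPM. The part of gland makeup in these overlaps was not tested. Ankrd22, an ankyrin repeat gene (chromosome 19, 34121469 to 34166053), had 0.26, 0.1 and 0.37 TPM in the carcinosarcomas and 14.6, 16.9 and 17.5 TPM in the carcinomas, with 0.51 to 2.08 TPM in the glands (a log2 fold change of -3.80, 95% CI from -4.43 to -3.18, adjusted p = 0.00734). Klk7, a kallikrein protease, had 0.06, 0 and 0.13 TPM in the carcinosarcomas and 47.1, 13.3 and 146 TPM in the carcinomas, with 0.04 to 1.07 TPM in the glands, and Phlda2, an imprinted growth-regulating gene, had 2.21, 1.06 and 1.23 TPM in the carcinosarcomas and 48.4, 29.2 and 23.6 TPM in the carcinomas, with 0.75 to 5.24 TPM in the glands. For Ankrd22 and Klk7 the lowest carcinoma, at 14.6 and 13.3 TPM, was far above the highest gland, and carcinosarcomas were at or below gland levels. Klk7 and Phlda2 were picked with their values known. Kdf1, a regulator of keratinocyte differentiation, Tmc4, Smim22, Map7, a microtubule-binding protein of epithelia, Nfe2l3, a bZIP factor, and Eps8l2, an actin regulator, complete the 15 lower genes with the smallest p, at log2 fold changes of -4.12, -4.77, -4.34, -3.42, -3.43 and -3.67. All of these were below every gland in each carcinosarcoma.

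Il23a was the only called gene among 16 interleukins and immune ligands. It encodes the p19 subunit of interleukin 23 and had 0.5, 0.45 and 0.65 TPM in the carcinosarcomas and 23.2, 39.6 and 43.6 TPM in the carcinomas (a log2 fold change of -4.53, 95% CI from -5.29 to -3.77, adjusted p = 0.00734). Its carcinoma levels were 23.2 TPM or more, the carcinosarcomas were all under 1 TPM, and the glands ran from 1.2 to 32.4 TPM. Csf3 and Cd274 had values without overlap but were not called (log2 fold changes of -2.39 and -1.72, adjusted p = 0.213 and 0.179), and Il1b was at 52.6, 121 and 57.0 TPM in the carcinosarcomas and 167, 52.1 and 109.8 TPM in the carcinomas.

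Cdkn2a had the smallest p of the genes called higher, though not the largest fold change. It encodes the p16INK4a and p19ARF tumor suppressors (chromosome 4, 89274471 to 89294653) and had 779.7, 887 and 1074 TPM in the carcinosarcomas and 138, 154 and 90.2 TPM in the carcinomas, beside 2.49 to 16.5 TPM in the glands (a log2 fold change of 2.86, 95% CI from 2.19 to 3.52, adjusted p = 0.013). Every carcinosarcoma was above every carcinoma, and every carcinoma above every gland. Gene-level TPM do not separate the p16INK4a and p19ARF transcripts. It was the only one called of 16 cyclin-dependent kinase inhibitor and Rb family genes, whose median was 0.14. Cdkn2b, its neighbor, had 84.95, 86.5 and 83.9 TPM in the carcinosarcomas and 29.04, 28.5 and 162 TPM in the carcinomas and overlapped. Cdkn1a, a p53 target that encodes p21, had 34.2, 57.3 and 32.8 TPM in the carcinosarcomas and 98.8, 248 and 189.8 TPM in the carcinomas, and Trp53 had 26.5, 33.5 and 11.3 TPM in the carcinosarcomas and 46.2, 90.95 and 109 TPM in the carcinomas. Both were lower in every carcinosarcoma than in every carcinoma without being called (a log2 fold change of -2.03, 95% CI from -2.98 to -1.08, adjusted p = 0.109 for Cdkn1a, and a log2 fold change of -1.78, 95% CI from -2.93 to -0.64, adjusted p = 0.199 for Trp53). Of 16 p53 and p53 target genes, 0 were called by limma and the median was -0.84. In 6 of them, among them Mdm2 at 18.7, 23.01 and 28.2 TPM in the carcinosarcomas and 54.8, 61.9 and 136 TPM in the carcinomas, every carcinosarcoma was below every carcinoma, and in 2 every one was above, where the shares of all genes were 14.4% and 7.33%.

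**Figure D3:**
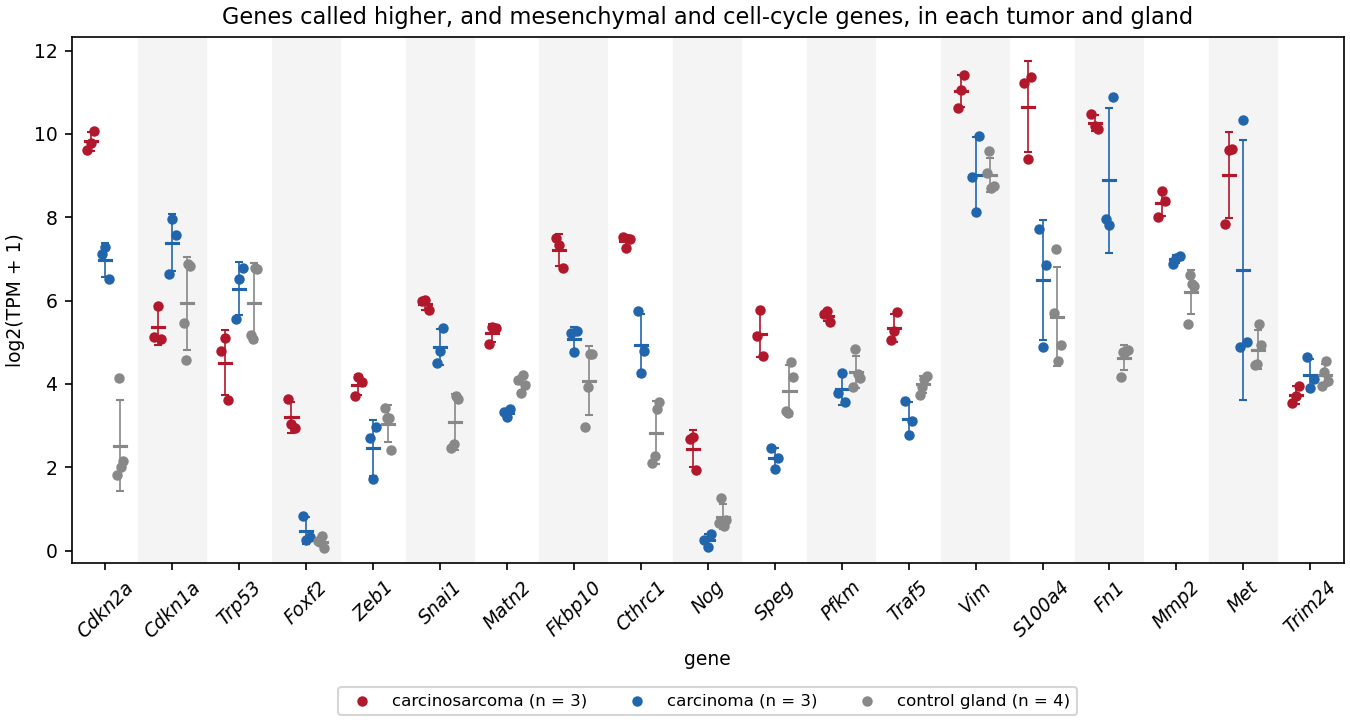
Log2(TPM + 1) (y axis) of 19 genes (x axis) in each carcinosarcoma (n = 3), carcinoma (n = 3) and control gland (n = 4), with the mean as a short bar and the SD as error bars. Cdkn2a, Foxf2, Matn2, Fkbp10, Cthrc1, Nog, Speg, Pfkm and Traf5 were called higher and show no overlap, whereas Fn1 and Met overlap because of 1 high carcinoma each.

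Mesenchymal genes gave few calls. Of 13 EMT transcription factors, Foxf2, a forkhead factor of mesenchyme, was called, at 11.4, 7.16 and 6.72 TPM in the carcinosarcomas and 0.79, 0.19 and 0.26 TPM in the carcinomas with 0.05 to 0.28 TPM in the glands (a log2 fold change of 2.73, 95% CI from 1.95 to 3.51, adjusted p = 0.0201). The carcinomas and glands were all under 1 TPM for Foxf2. Zeb1, a repressor of E-cadherin, had 12.1, 16.9 and 15.4 TPM in the carcinosarcomas and 5.54, 2.28 and 6.86 TPM in the carcinomas, and Snai1, another, had 62.8, 63.2 and 53.4 TPM in the carcinosarcomas and 21.5, 26.8 and 39.5 TPM in the carcinomas. Neither overlapped and neither was called (adjusted p = 0.184 and 0.197). Twist1, at 39.5, 51.4 and 99.1 TPM in the carcinosarcomas and 13.99, 53.6 and 45.1 TPM in the carcinomas, and Snai2, at 16.03, 16.5 and 8.03 TPM in the carcinosarcomas and 29.9, 1.67 and 5.67 TPM in the carcinomas, did overlap. The list median was 0.83, and 6 of 13 had every carcinosarcoma above every carcinoma, where the share of all genes was 7.33%.

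None of 22 mesenchymal markers was called by limma, with a median of 0.76. S100a4, a calcium-binding protein of motile cells, had 2374, 669.8 and 2621 TPM in the carcinosarcomas and 209, 28.8 and 115 TPM in the carcinomas (a log2 fold change of 4.16, 95% CI from 2.24 to 6.09, adjusted p = 0.107). Vim, the mesenchymal intermediate filament, had 1583, 2136 and 2722 TPM in the carcinosarcomas and 498, 277 and 996 TPM in the carcinomas (a log2 fold change of 2.02, 95% CI from 0.88 to 3.16, adjusted p = 0.161), and Mmp2, a gelatinase, had 258, 397 and 332 TPM in the carcinosarcomas and 117, 129 and 133 TPM in the carcinomas (a log2 fold change of 1.35, 95% CI from 0.79 to 1.92, adjusted p = 0.0742). In all 3 the classes were apart, with carcinoma 3956 the highest carcinoma for Vim and Mmp2. Fn1, which encodes fibronectin, was at 1416, 1165 and 1109 TPM in the carcinosarcomas and 248, 224 and 1885 TPM in the carcinomas, and Lgals1, which encodes galectin-1, at 4017, 3889.7 and 7546 TPM in the carcinosarcomas and 743, 1076 and 4357 TPM in the carcinomas. Carcinoma 3956 was above every carcinosarcoma for Fn1 and between them for Lgals1. Without carcinoma 3956, 3 of the 22 were called higher, among 34 higher genes in all, and 0 were called by limma when any other tumor was left out. Cdh2, the cadherin that often replaces E-cadherin, was at 1.31, 14.9 and 0.57 TPM in the carcinosarcomas and 2.93, 1.25 and 20.8 TPM in the carcinomas and did not separate the classes. The study reported stronger changes of Vim, Lgals1 and Cdh1 in carcinosarcomas than in carcinomas, and EMT scores that differed significantly between them. By protein staining of carcinosarcomas it also reported a gain of vimentin and a loss of E-cadherin. Those are other measures than a call per gene.

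Matrix genes gave 1 call among 19 matricellular and elastic fiber genes. Matn2, a matrilin that links matrix fibers, had 30.1, 40.04 and 39.7 TPM in the carcinosarcomas and 8.97, 8.18 and 9.55 TPM in the carcinomas (a log2 fold change of 1.92, 95% CI from 1.34 to 2.49, adjusted p = 0.0224), with 12.7 to 17.4 TPM in the glands. Carcinomas were below every gland and carcinosarcomas above them. The list medians were 0.85 for matricellular genes, 0.80 for 19 collagens and 0.52 for 17 matrix proteases, and 0 of the collagens and 0 of the proteases were called by limma. Col1a1 had 601, 2043 and 376 TPM in the carcinosarcomas and 769.6, 57.2 and 543 TPM in the carcinomas and overlapped widely, with carcinosarcoma 567 the highest. Col6a1 had 235, 398 and 167 TPM in the carcinosarcomas and 91.3, 16.6 and 144 TPM in the carcinomas and did not overlap. Outside the lists, Fkbp10, a chaperone of collagen folding, had 180.5, 161 and 109 TPM in the carcinosarcomas and 36.1, 26.3 and 37.8 TPM in the carcinomas (a log2 fold change of 2.12, 95% CI from 1.45 to 2.79, adjusted p = 0.0291), and Cthrc1, a secreted matrix protein, had 184, 152 and 178 TPM in the carcinosarcomas and 52.6, 18.2 and 26.5 TPM in the carcinomas (a log2 fold change of 2.49, 95% CI from 1.58 to 3.41, adjusted p = 0.0496). In both the carcinomas were already above every gland (6.86 to 25.5 TPM for Fkbp10 and 3.28 to 10.8 TPM for Cthrc1).

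Speg and Pfkm, both called higher, are best known from muscle. The first, a kinase of striated muscle, had 34.8, 53.9 and 24.4 TPM in the carcinosarcomas and 4.53, 2.91 and 3.64 TPM in the carcinomas (a log2 fold change of 2.99, 95% CI from 2.16 to 3.81, adjusted p = 0.0196), and the other, the muscle form of phosphofructokinase, had 49.9, 52.6 and 43.9 TPM in the carcinosarcomas and 12.7, 18.3 and 10.8 TPM in the carcinomas (a log2 fold change of 1.76, 95% CI from 1.13 to 2.40, adjusted p = 0.0467). The 5 markers of muscle fibers summed to 34.8 to 903 TPM in the carcinosarcomas, 20.9 to 278 TPM in the carcinomas, with the top value in carcinosarcoma 567, and Acta1, skeletal actin, was at 12.8, 413 and 19.7 TPM in the carcinosarcomas and 108, 5.99 and 169.6 TPM in the carcinomas. Speg and Pfkm were highest in the same tumor, and the part of muscle RNA in their levels was not tested. Of 15 smooth muscle genes Speg was the only call (median 0.66), and of 10 skeletal muscle genes 0 were called by limma (median 0.50). Pfkm was the only call among 17 glycolysis genes, with a median of 0.15. Its sister genes went differently, with Pfkl at 73.05, 70.8 and 96.4 TPM in the carcinosarcomas and 135, 111 and 113 TPM in the carcinomas and Pfkp at 43.8, 51.7 and 39.5 TPM in the carcinosarcomas and 65.99, 21.8 and 42.4 TPM in the carcinomas. Pgk1 had 1303, 805 and 1445 TPM in the carcinosarcomas and 618, 602 and 505 TPM in the carcinomas and was not called (adjusted p = 0.215). Pgk1-rs7, a near copy of Pgk1 whose reads cannot be assigned with certainty, was called higher.

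The other genes called higher had separate roles. Nog, which encodes the BMP antagonist noggin, had 5.41, 5.63 and 2.83 TPM in the carcinosarcomas and 0.2, 0.06 and 0.32 TPM in the carcinomas (a log2 fold change of 2.20, 95% CI from 1.43 to 2.97, adjusted p = 0.0432), with 0.51 to 1.39 TPM in the glands. Traf5, an adaptor of TNF receptors, had 32.1, 37.9 and 51.6 TPM in the carcinosarcomas and 10.99, 5.81 and 7.67 TPM in the carcinomas (a log2 fold change of 2.19, 95% CI from 1.44 to 2.94, adjusted p = 0.0396). For Nog and Traf5 the carcinomas were below every gland and the carcinosarcomas above. Glipr2, a Golgi-associated protein, had a log2 fold change of 2.08, and Ddah2, which degrades methylated arginines, of 1.63 (adjusted p = 0.0378 and 0.0467). Rnu3b1, Rnu3b2, Rnu3b3 and Rnu3b4 are copies of the U3 small nucleolar RNA and were listed with identical values, 11.2, 6.45 and 21.4 TPM in the carcinosarcomas and 0 in every carcinoma and gland. They count as 1 observation. Rnu5g, a U5 small nuclear RNA called lower, was listed at 0 in the carcinosarcomas and at 12.6, 20.3 and 62.1 TPM in the carcinomas, but at 0 in the repeat library of tumor 3956, so its value differed between libraries of a single tumor. Rnu5g and Pgk1-rs7 were also picked with their values known.

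Most pathway lists held no called gene. The medians were 0.15 for 20 proliferation genes, 0.24 for 15 hypoxia genes, 0.01 for 19 TGF-beta genes, -0.12 for 18 Wnt genes, -0.15 for 18 PI3K genes, 0.17 for 13 chemokines, -0.44 for 14 MHC genes, -0.25 for 6 cartilage and bone genes and -0.49 for the 3 TIF1 family genes, with 0 called by limma in each. Interleukins had a median of -0.33 and epithelial receptors of -1.18, with keratins at -2.50. Among chemokines, Ccl2, a monocyte attractant, was at 139, 111 and 216 TPM in the carcinosarcomas and 50.98, 17.9 and 40.4 TPM in the carcinomas, without overlap and without a call. The proliferation genes Top2a, without overlap at 114, 109 and 135 TPM in the carcinosarcomas and 94.3, 88.5 and 35.4 TPM in the carcinomas, and Mki67, at 17.03, 11.1 and 13.9 TPM in the carcinosarcomas and 26.7, 23.1 and 10.2 TPM in the carcinomas, were not called either (adjusted p = 0.379 and 0.664). Scaling by median ratios or quantiles shifted the median of all genes upward by 0.16 and 0.13. The Wnt and PI3K medians turned positive under both, and the glycolysis median turned negative under quantiles, against the shift.

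Milk, hormone and interferon genes had low medians but no call by limma. The 12 milk and secretory defense genes had a median of -3.43. Csn3, a casein, was at 10.8, 68.99 and 12.6 TPM in the carcinosarcomas and 2228, 4072 and 85.8 TPM in the carcinomas, and Lcn2, an iron-binding defense protein, at 31.96, 114 and 22.01 TPM in the carcinosarcomas and 3605, 11702 and 80.3 TPM in the carcinomas. Carcinoma 3956 stood with the carcinosarcomas for Lcn2 and close to them for Csn3, and without it 4 of the 12 were called lower, against 0 by limma when any other tumor was left out. The study's own comparison of the classes, with another measure and test, listed Ltf, a milk and secretory defense gene, as higher in the carcinomas. It listed the tight junction gene Tjp3 and the bone gene Alpl in the same direction. None of these was called here. The 9 hormone receptor and luminal genes had a median of -0.92. Esr1, the estrogen receptor, was at 1.29, 1.54 and 1.0 TPM in the carcinosarcomas and 1.83, 0.71 and 0.84 TPM in the carcinomas, below every gland in all 6 tumors (8.02 to 11.6 TPM). All 14 interferon-stimulated genes had fold changes below 0 (median -1.25), but 0 of the 14 separated the classes. In Mx1 carcinoma 3956 was again low, at 3.76, 1.76 and 1.72 TPM in the carcinosarcomas and 14.6, 30.7 and 3.52 TPM in the carcinomas.

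**Figure D4:**
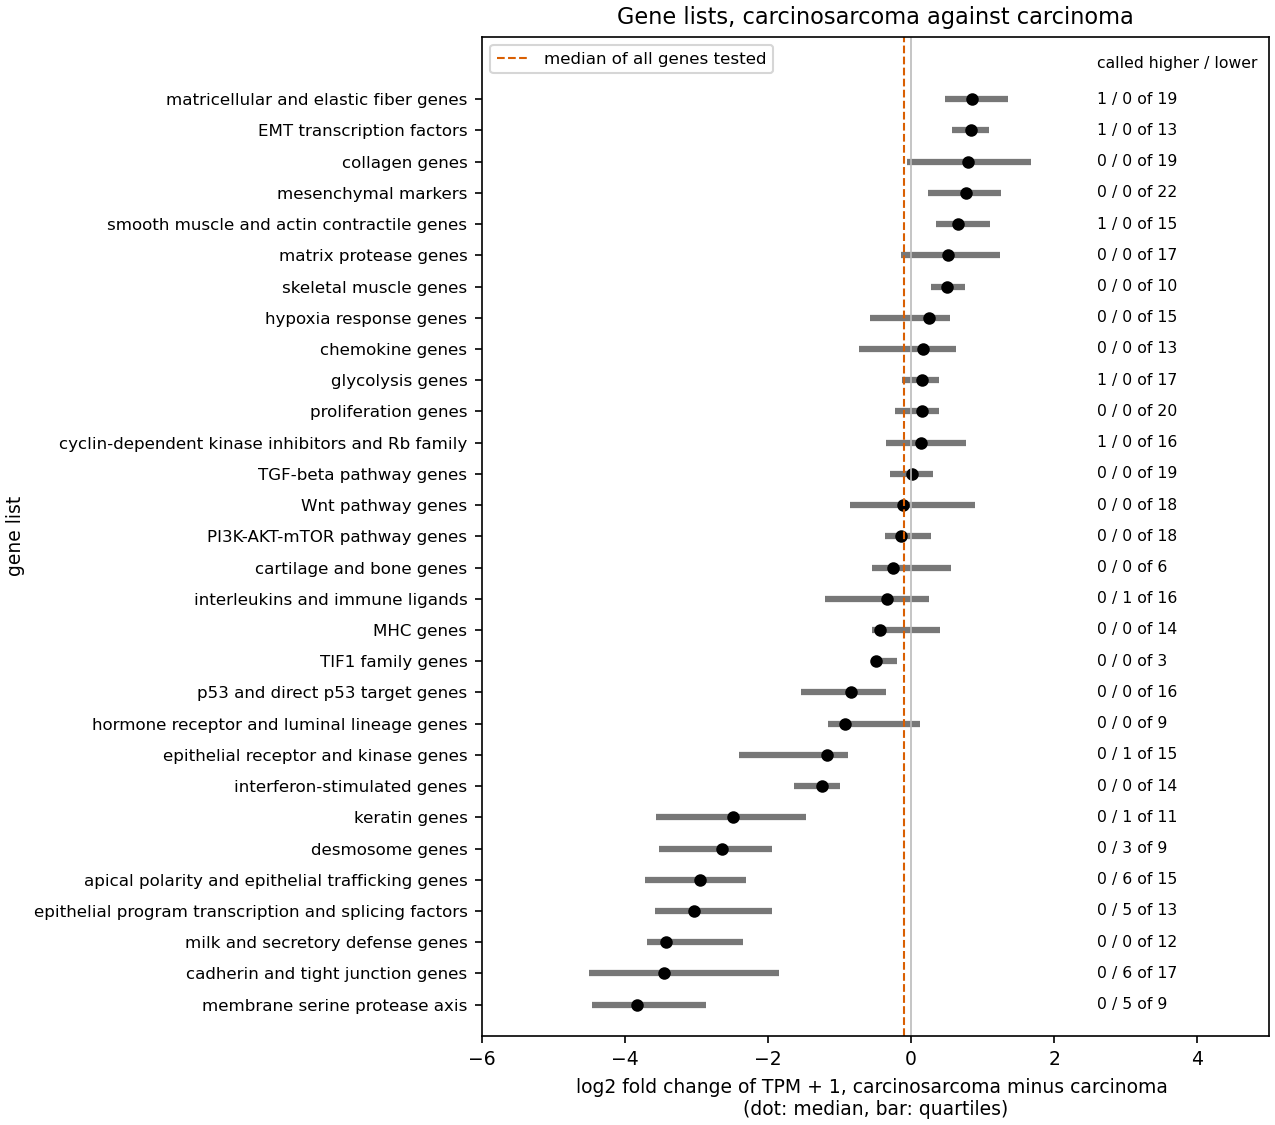
Median (dot) and quartiles (bar) of the log2 fold change (x axis) in 30 gene lists (y axis), with the numbers called higher and lower at the right and the median of all genes tested as a dashed line at -0.10. The epithelial lists lie between -3.84 and -1.18, and the mesenchymal and matrix lists between 0.52 and 0.85.

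Among the other genes that the study names, Sncg was at 4.26, 22.5 and 3.83 TPM in the carcinosarcomas and 73.4, 37.6 and 3.48 TPM in the carcinomas and Mif at 1654, 932 and 1543 TPM in the carcinosarcomas and 1384, 1209.6 and 1239 TPM in the carcinomas, and neither separated the classes (adjusted p = 0.557 and 0.935). Aldh1a1, Vtcn1, Ltk and Syt9 were below 1 TPM in most tumors and were not tested. The highest of them, Vtcn1, had 9.38 TPM in carcinoma 89 and 0.67 TPM or less in every carcinosarcoma.

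The carcinomas were less alike than the carcinosarcomas. The median SD of log2(TPM + 1) over the genes tested was 0.35 in the carcinosarcomas and 0.43 in the carcinomas, and 60.5% of genes had the larger SD in the carcinomas. Among the carcinosarcomas, tumor 567 was the highest in 55 of the 83 lower genes, as in Spint2 (34.4 TPM), while tumor 897 was the highest for the luminal keratins Krt8 and Krt18 and for the sum of luminal markers. In the repeat library of carcinoma 3956, from batch 2 and normalized in another table, 82 of the 83 lower genes were above every carcinosarcoma and 16 of the 16 higher genes below. The genes were called with the first library of the same tumor, so this is no independent support.

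Markers of other cell types moved with the classes in part, and 0 of the markers were called by limma. Summed over 7 mammary luminal markers, levels were 301 to 1602 TPM in the carcinosarcomas, 2818 to 6172 TPM in the carcinomas, and over 6 basal markers 122 to 519 TPM in the carcinosarcomas, 144 to 3524 TPM in the carcinomas. The 7 fibroblast markers summed to 1689 to 5671 TPM in the carcinosarcomas, 189 to 1951 TPM in the carcinomas, with a median log2 fold change of 1.55. The 9 macrophage markers summed to 1856 to 3471 TPM in the carcinosarcomas, 1194 to 2619.6 TPM in the carcinomas. Luminal sums did not overlap, while basal, fibroblast and macrophage sums did. The 7 adipocyte markers summed to 166 to 219 TPM in the carcinosarcomas, 111 to 1222 TPM in the carcinomas, and the 6 neutrophil markers to 229.8 to 296 TPM in the carcinosarcomas, 102 to 2053 TPM in the carcinomas, and carcinoma 89 had the top value of both. The 9 endothelial markers had a median of 0.62, the 8 T and NK cell markers of 0.58, the 3 tested B cell markers of 0.63, the 5 pericyte markers of -0.73, and the 3 tested Schwann cell markers of -1.92. The Schwann cell sums, 5.06 to 11.8 TPM in the carcinosarcomas, 16.5 to 144 TPM in the carcinomas, did not overlap. No marker was at 0 in all tumors, and Lep of fat cells was under 1 TPM in every carcinosarcoma. The part of cell makeup in the lower epithelial genes was not tested.

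The number of calls rested on single tumors. Without carcinosarcoma 64 or without carcinoma 89, 0 genes were called by limma, with 1138 and 1482 genes at an unadjusted p under 0.05. There were 13 without carcinosarcoma 897, 47 without 567, 102 without carcinoma 273_5 and 222 without carcinoma 3956. Without the filter on low values limma called 0 genes, with 2871 at an unadjusted p under 0.05. Of the 83 lower genes, 7 were called in 4 of the 6 fits that left out a tumor and 5 in none, and no gene was called in more. Of the 16 higher genes, 6 were called in 3 of these fits, 1 in 2, 5 in 1, and 4 (Glipr2, Traf5, Ddah2 and Cthrc1) in none. Those 6 were Cdkn2a, Pgk1-rs7, whose reads cannot be assigned with certainty, and the 4 Rnu3b copies, which count as 1 observation. The 7 lower genes were Cdcp1, Ankrd22, Il23a, Spint1, Krtcap3, Tmc4 and Smim22, and Cdkn2a was called in 3. Of the 63 epithelial genes, 0 were called lower by limma without tumor 64 or 89, 4 without 897, 20 without 567, 23 without 273_5 and 33 without 3956. Of the same genes, 59 to 63 had fold changes below 0 in each of the 6 fits, and the median ran from -3.63 to -2.85.

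**Figure D5:**
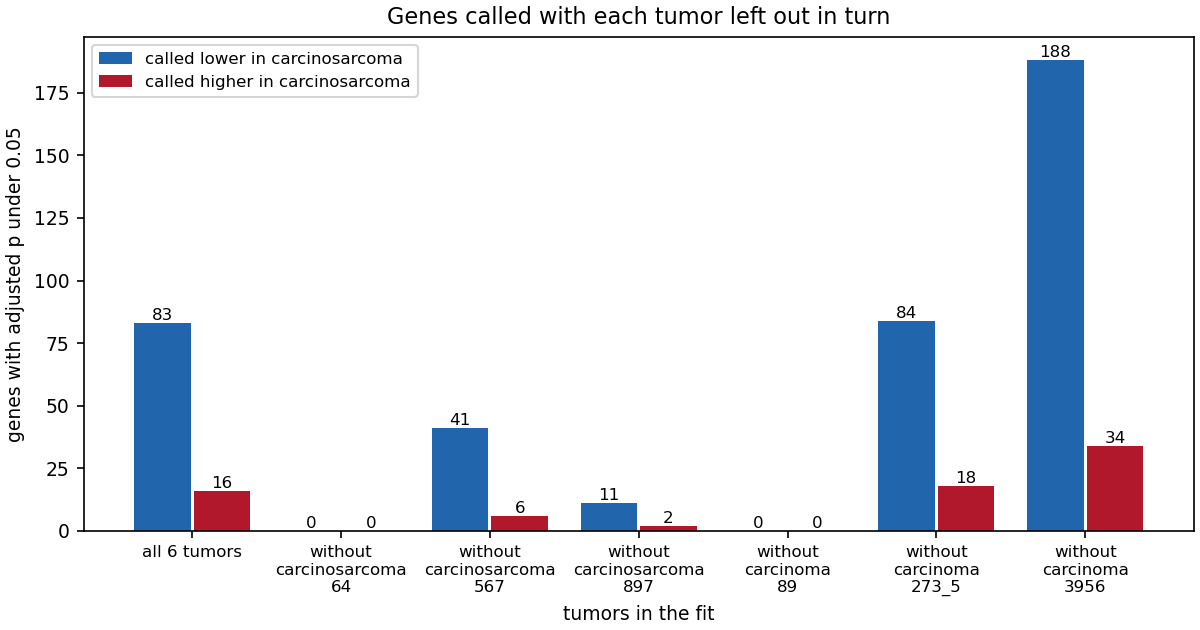
Number of genes with a limma adjusted p under 0.05 (y axis), lower and higher in carcinosarcomas, with all 6 tumors and with each tumor left out in turn (x axis). The number lower was 83 with all tumors, 0 without tumor 64 or 89 and 188 without tumor 3956.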

How the data were processed

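RNA of whole mammary tumors and glands was sequenced, and the authors deposited 1 table of TPM (transcript levels scaled for length and library size) per batch. Only batch 1 was used for tests, and TPM from batch 2, normalized separately, are given for the repeat library alone. The labels name mirVana extraction, TruSeq Stranded Total RNA libraries, TopHat and Cufflinks on mm10, while the study's methods name Direct-zol, TruSeq RNA, STAR and RSEM on GRCm38, so which pipeline made the deposited TPM is unsure. Poly(A) or total RNA libraries would differ in their small RNAs. Depth is unknown. Of the 51826 genes of the table, 200 had no symbol. No value column was left unmapped.

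Genes with at least 1 TPM in at least 3 of the 6 tumors were tested on log2(TPM + 1) with limma 3.58.1 in R 4.3.3 (lmFit and eBayes with trend), without covariates, with Benjamini-Hochberg adjustment over all genes and a threshold of 0.05. The fit was tested on simulated data. Coordinates are from the GENCODE release M21 annotation of GRCm38 (the study used M14), and promoter sequences from RefSeq. Members, gene lists and named genes were chosen with earlier results of these data known. The naming rule took up to 15 called genes without overlap in each direction, called members of each list or otherwise its 2 members with the smallest p, and genes the study names, and values are printed for part of them. Other list members given with values were picked with their values known. Alternatives were another pseudocount, filter, scaling, variance model or set of libraries, and each tumor left out in turn. Some items are not reported here.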

Additional observations from a re-analysis of the deposited data

Results flagged for a closer look

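In 2 of 92 groups of control glands tested, 1 gland stood apart from the other 3, measured as its gap to the nearest gland over the range of the group, both on log2(TPM + 1). Chance alone flags about 1 in 20 groups, and groups of 3 tumors are too small for this check. Cdkn2a was at 16.5 TPM in gland 392 and at 2.49, 3.0 and 3.41 TPM in the others, a gap over range of 0.855. This gland remained far below every carcinoma, the lowest of which had 90.2 TPM. Fn1 was at 17.1 TPM in gland 133 and between 26.1 and 27.0 TPM in the others, a gap over range of 0.927. All glands were far below every tumor for Fn1.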

How the results depend on the processing

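Other pseudocounts, stricter filters, median ratio or quantile scaling, all batch 1 libraries in the fit and other variance models gave 80 to 146 called genes beside 99, with 80 to 95 of the 99 shared. Without a filter on low values, limma called 0 genes, 0 higher and 0 lower (2871 at an unadjusted p under 0.05). Array weights gave 330 calls, 60 higher and 270 lower. With all batch 1 libraries in the fit, 39 genes were called higher instead of 16. Leaving out 1 tumor in turn gave 0 to 222 calls, 0 to 34 of them higher and 0 to 188 lower, with 0 called by limma without carcinosarcoma 64 or carcinoma 89. The cause of the 0 calls without a filter, of the rise with array weights and of the rise without carcinoma 3956 was not tested. Of 92 named genes under settings with all tumors kept, 923 of 1005 values kept direction and side of the threshold. With 1 tumor left out, 359 of 552 did and 180 lost the call with the same direction. The sign turned only in genes that were not called: Tnni2 (-0.0744 with array weights, -0.14 to 1.63 with 1 tumor left out), Myh1 (-0.24 to 1.43 with 1 tumor left out) and Mif (-0.0052 with quantile scaling, -0.0886 to 0.32 with 1 tumor left out). The values in this paragraph for genes are log2 fold changes. No paired analysis was possible because each tumor came from a different mouse and the labels give no pairs across the classes. Depth is unknown, each class holds 3 tumors, and a difference that missed the threshold is not shown to be absent.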
